A study of Mus musculus with 8 samples.

Results

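The 9 genes described here are Ebf1, Pax5, Rag1, Rag2, Vpreb1, Igll1, Cd79a, Cd79b and Ighm, a set chosen by name because each is used in the making of B cells or in the B cell receptor. Of the 9 genes, 8 have a row among the 20681 rows of the table, and Rag2 was not analysed here. RNA was measured by poly-A sequencing in 8 mouse knee joints, 4 of them controls and 4 of them knockouts by label. The strain is given as Acan-Cre with floxed Loxl2: Cre is made where aggrecan is, chiefly in cartilage cells, and cuts Loxl2, whose enzyme crosslinks collagen. The labels state this genotype for the series as a whole, call the controls vehicle-treated and name their libraries LOXL2wt, and name the other libraries LOXL2ko. All 8 library names carry DMM, not spelled out there but in knee work the common short form for surgical destabilisation of the medial meniscus. Age, sex, the time after injury and any agent given in place of vehicle are not stated in the labels used here. Nothing in the labels says whether a library came from 1 animal or several, so the p-values measure the spread between these libraries.

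B cells are made in the bone marrow. The transcription factors Ebf1 and Pax5 commit a progenitor to the lineage, the Rag1 and Rag2 recombinase cuts the immunoglobulin genes so that they can be joined, and the surrogate light chain made of Vpreb1 and Igll1 tests the new heavy chain before a light chain exists. Cd79a and Cd79b are the signalling chains of the B cell receptor, and Ighm encodes the constant part of the IgM heavy chain. A whole knee holds marrow within the ends of its bones, so the genes can be read there, diluted by muscle, bone, cartilage and synovium. Ebf1 differs from the others in that fat cell precursors and other stromal cells also express it.

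The libraries held 13991000 to 17411617 reads assigned to genes. Loxl2, the targeted gene, had 519 ± 411 (SD, n = 4) normalised reads in the control group and 1210 ± 329 (SD, n = 4) in the other (log2 difference 1.44, limma adjusted p = 0.0294). That is opposite to a loss of Loxl2 reads, so the groups are called by their labels. Whole knees were read, while Cre is made chiefly in cartilage cells, and the cause of the difference was not tested. The Loxl2 call was lost when control replicate 1, 2 or 4, or knockout replicate 2 or 4, was left out, with limma adjusted p up to 0.0849. Skeletal muscle dominated the libraries: 16 muscle genes summed to between 2451170 and 2649239 normalised reads in the controls and between 1175695 and 1664679 in the libraries labelled knockout. The 10 cartilage markers were all read, with sums of 15276 to 37982 and 32030 to 56122. A value below is a normalised read count, that is, the reads of a gene divided by the size factor of its library.

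Promoters are shown for 3 of the genes, because Cd79a and Pax5 varied together from library to library and Ebf1 did not. The RefSeq promoter table (build GRCm38.p6) held 8 promoters for 7 of the 9 genes, each from 250 bases before to 50 after a transcription start. Capitals mark letters of 3 searched motifs, on either strand: the E-boxes CAGGTG and CAGCTG, which E2A proteins bind, and GGAAGT, the core of many Ets sites. The Cd79a promoter lies at chr7:24897247-24897546 on the plus strand, that of Pax5 at chr4:44710645-44710944 on the minus strand, and the second start of Ebf1 at chr11:44619978-44620277 on the plus strand.
Cd79a: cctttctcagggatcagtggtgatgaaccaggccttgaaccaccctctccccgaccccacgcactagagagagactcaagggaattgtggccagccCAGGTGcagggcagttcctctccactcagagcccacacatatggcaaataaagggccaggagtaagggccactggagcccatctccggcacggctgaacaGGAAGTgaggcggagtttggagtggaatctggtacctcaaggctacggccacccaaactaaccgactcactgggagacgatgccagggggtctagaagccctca
Pax5: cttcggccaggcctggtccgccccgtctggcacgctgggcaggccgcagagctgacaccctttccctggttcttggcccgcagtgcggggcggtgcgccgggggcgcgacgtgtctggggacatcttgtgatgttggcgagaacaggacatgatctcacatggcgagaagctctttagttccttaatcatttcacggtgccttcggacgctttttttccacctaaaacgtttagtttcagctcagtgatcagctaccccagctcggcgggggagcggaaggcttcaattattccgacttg
Ebf1: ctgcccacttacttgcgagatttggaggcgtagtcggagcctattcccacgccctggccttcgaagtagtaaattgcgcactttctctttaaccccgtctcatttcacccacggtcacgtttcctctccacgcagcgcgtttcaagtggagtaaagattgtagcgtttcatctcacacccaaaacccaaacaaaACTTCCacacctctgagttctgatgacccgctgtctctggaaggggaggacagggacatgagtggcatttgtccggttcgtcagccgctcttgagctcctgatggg
In Cd79a the E-box began 154 bases before the start and the Ets core 54 bases before it. CAGGTG was found in 4 of the 8 promoters (Rag1, Cd79a, Igll1 and Vpreb1) against 20.2% of all 32851 promoters, CAGCTG in 2 (Rag1 and Igll1) against 16.3%, and GGAAGT in 3 (Rag1, Cd79a and the second start of Ebf1) against 23.8%. The palindrome that EBF proteins bind (TCCC, any 2 bases, GGGA) was in 0 of the 8 and in 0.904% of all promoters. Only exact matches were counted, so an EBF site that departs from these letters would be missed. Such matches describe letters and show no binding.

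No B cell development gene was called different between the groups. Of the 8 genes with a row, 5 reached 10 normalised reads in 4 or more libraries and were tested (Ebf1, Pax5, Cd79a, Cd79b and Ighm), and limma called 0 of them at an adjusted p under 0.05, where 23.2% of all 14949 tested genes were called. At an unadjusted p under 0.05 there was 1 of 5, Ebf1, where 38.4% of all tested genes were. edgeR called 0, and DESeq2 called 1, again Ebf1 (DESeq2 adjusted p = 0.0490). For 0 of the 8 genes were the groups separate, against 25.1% of tested genes, and the smallest exact permutation p was 0.143, where 0.0286 is the smallest that 70 assignments of the libraries allow. Rag1, Vpreb1 and Igll1 were low and are described by their reads.

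**Figure D1:**
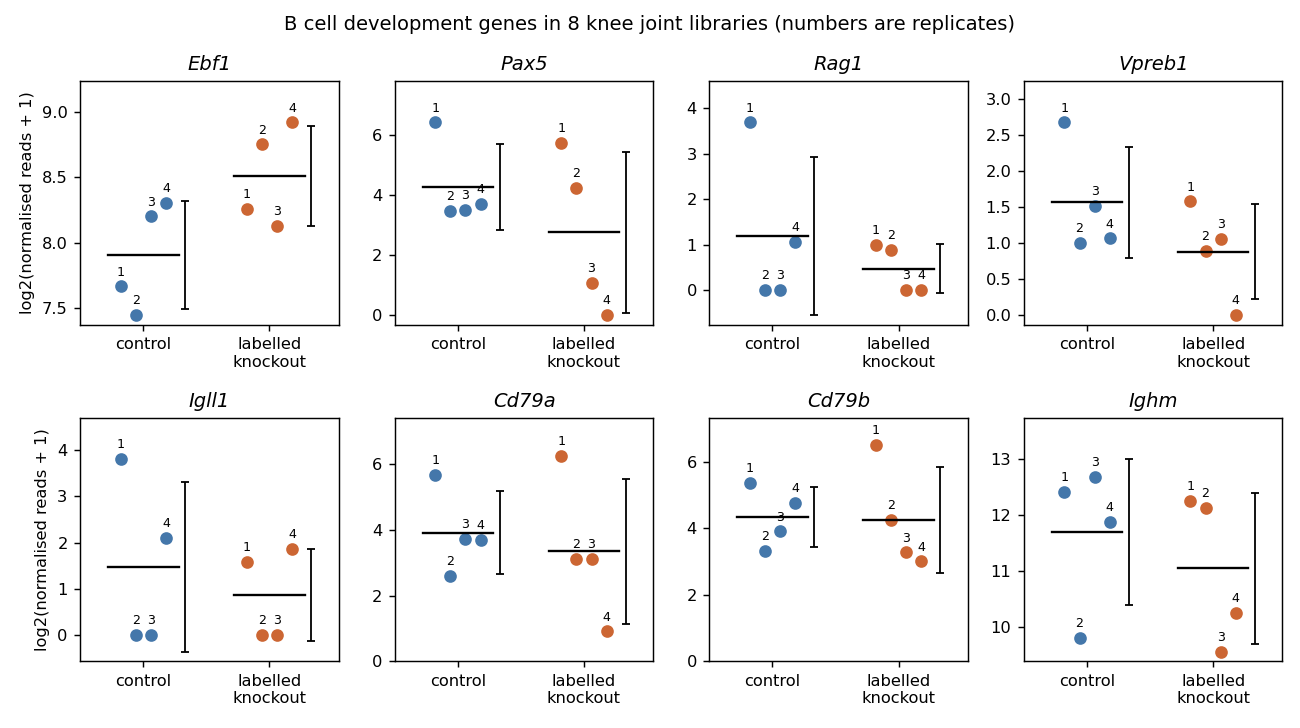
Each panel plots 1 gene as log2(normalised reads + 1) in the 4 control and 4 labelled knockout libraries, numbered by replicate, with the mean as a horizontal line and the SD as a bar beside it, each on its own scale. Ebf1 lies mostly higher in the libraries labelled knockout, while in Pax5, Cd79a and Cd79b replicate 1 stands highest in both groups.

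Ebf1, the factor that opens the B cell programme, was read well in every library. It occupies chromosome 11, bases 44617317 to 45008091, plus strand, with the antisense gene Gm12158 inside it and 0 exonic bases shared. Controls 1 to 4 had 202, 174, 293 and 315 normalised reads, and the libraries labelled knockout 305, 430, 278 and 483, in replicate order. The groups overlapped, since knockout replicates 1 and 3 lay below the highest control. The means were 246 ± 68.9 and 374 ± 98.3 (SD, n = 4 each), which gave a log2 difference of 0.61 (SE 0.23) and a 95% interval from 0.09 to 1.13 (limma adjusted p = 0.0858, exact permutation p = 0.143). With size factors from genes outside the muscle, red cell and neutrophil lists and outside the 50 most read genes, the difference was 0.76 and was called (limma adjusted p = 0.0461), while the median of all tested genes moved to 0.15.

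Ebf1 did not follow the other B cell genes. Over the 8 libraries its Pearson r on log2(value + 1) was -0.45 with Pax5, -0.40 with Cd79a, -0.13 with Cd79b and 0.11 with Ighm. It was 0.89 with Pdgfra, a fibroblast receptor gene, and 0.28 with Plin1, a fat cell gene. These values are a description of libraries that share their group differences. The 5 tested genes most like it were Pdcd6, Rhoa, Wfdc17, Tspan5 and Tlr7, with r from 0.975 to 0.986. Fibroblast and macrophage markers were higher in the libraries labelled knockout. Over all tested genes 11.6% were called higher and 11.6% lower. Of 12 fibroblast genes 9 were called higher and 0 lower, with sums of 71196 to 200395 in the controls and 221583 to 380988 in the libraries labelled knockout. The fibroblast calls were 6 or fewer if control replicate 2 or 4, or knockout replicate 1 or 4, was dropped, with 5 in the case of knockout replicate 4. Of the macrophage markers, 10 of 10 genes were called higher, with sums of 1496 to 3479 and 5358 to 7120. The macrophage calls were 7 without knockout replicate 1 or 4. Of 10 fat cell genes 0 were called higher and 1 lower (Lpl, a lipase gene, log2 difference -0.69, limma adjusted p = 0.0246, up to 0.0655 where control replicate 2 or 4, or knockout replicate 1 or 2, was left out), with sums of 17049 to 21180 and 12491 to 16472. The part of these cells in the Ebf1 values was not tested. The other members of the family gave log2 differences of 0.74 for Ebf4 (limma adjusted p = 0.110), 0.20 for Ebf2 (0.592) and 0.06 for Ebf3 (0.760), so none of the 4 family genes was called. Ebf4 was called without control replicate 3 (log2 difference 0.996, limma adjusted p = 0.0324).

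Pax5, which holds a cell in the B lineage, was high in 2 libraries. It occupies chromosome 4, bases 44524757 to 44710487, minus strand, and the annotation places Gm12462 and 5730488B01Rik on the opposite strand with 125 and 636 exonic bases shared, so without strand its reads could not be told from theirs. Controls 1 to 4 had 84.4, 10.1, 10.3 and 12.0 normalised reads, and the libraries labelled knockout 51.9, 18.0, 1.09 and 0. Replicate 1 was highest in both groups, knockout replicates 3 and 4 were lowest, and the groups overlapped. The 0 reads of knockout replicate 4 allow up to 3 reads, or 2.64 normalised reads, for counting error only. The means were 29.2 ± 36.8 and 17.7 ± 24.2 (SD, n = 4 each), and the log2 difference was -1.51 (SE 1.22), its interval from -4.23 to 1.20 (limma adjusted p = 0.392, exact permutation p = 0.371). On recovered reads the difference was smaller, at -0.72 with edgeR (edgeR adjusted p = 0.676) and -0.71 with DESeq2 (DESeq2 adjusted p = 0.773).

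The recombinase and surrogate light chain genes were close to the limit of detection. Rag1 (chromosome 2, 101638282 to 101649501, minus strand) had 14 reads over the 8 libraries, 11 of them in control replicate 1, and was at 0 in 4 libraries. Igll1 (chromosome 16, 16860671 to 16863985, minus strand) had 20 reads, 12 of them in control replicate 1, and was likewise at 0 in 4 libraries. Vpreb1 (chromosome 16, 16868403 to 16870843, minus strand) had 13 reads, 5 of them in control replicate 1. In normalised reads the highest library was control replicate 1 for all 3 genes, at 11.9 for Rag1, 13.0 for Igll1 and 5.41 for Vpreb1. In the libraries labelled knockout the highest values were 0.997, 2.64 and 1.99, all below the 2.57 to 3.29 normalised reads that a count of 0 allows in a library, except for Igll1 in knockout replicate 4, whose value equals that of 3 reads there. No difference between the groups was detectable at this depth, and in a fit with no filter the limma adjusted p was 0.611 for Rag1, 0.698 for Igll1 and 0.482 for Vpreb1. Vpreb1 shares 108 exonic bases with Top3b on the opposite strand, a gene with 367 to 451 normalised reads per library, and Vpreb2 is a close copy of it, so even these reads are uncertain. Rag1 shares 80 exonic bases on the same strand with B230118H07Rik, which had 617 to 884.

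Cd79a and Cd79b, the signalling pair of the receptor, rose and fell together across libraries. Cd79a (chromosome 7, 24897381 to 24902197, plus strand) had 49.8, 5.05, 12.2 and 12.0 normalised reads in the controls and 75.8, 7.70, 7.61 and 0.880 in the libraries labelled knockout, in replicate order. Cd79b (chromosome 11, 106311341 to 106314762, minus strand) had 40.0, 9.08, 14.0 and 26.3 in the controls and 89.8, 18.0, 8.70 and 7.04 in the libraries labelled knockout. Replicate 1 was highest in both groups for both genes, and the other libraries lay at 26.3 or below. The log2 difference of Cd79a was -0.57 (SE 1.03, interval -2.87 to 1.73, limma adjusted p = 0.719, exact permutation p = 0.686). For Cd79b it was -0.08 (SE 0.75, interval -1.76 to 1.59, limma adjusted p = 0.947, exact permutation p = 0.943). Neither direction was stable. On the linear scale the means were higher in the libraries labelled knockout, at 19.7 ± 20.3 against 23.0 ± 35.3 for Cd79a and 22.4 ± 13.8 against 30.9 ± 39.6 for Cd79b (SD, n = 4 each), and edgeR gave differences of 0.21 and 0.46 (edgeR adjusted p = 0.902 and 0.705). Without control replicate 1 the limma difference of Cd79a was 0.01, and without knockout replicate 1 it was -1.54 (limma adjusted p = 0.996 and 0.214).

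Ighm was the most abundant of the set by far. It occupies chromosome 12, bases 113418558 to 113422730, minus strand, with no other annotated gene overlapping it. Controls 1 to 4 had 5465, 893, 6588 and 3778 normalised reads, and the libraries labelled knockout 4872, 4471, 756 and 1229. Control replicate 2 and knockout replicates 3 and 4 were low, and the others lay at 3778 or above. The means were 4181 ± 2477 and 2832 ± 2139 (SD, n = 4 each), which gave a log2 difference of -0.65 (SE 0.73) and an interval from -2.28 to 0.99 (limma adjusted p = 0.550, exact permutation p = 0.543). The largest shift from leaving out a library came without control replicate 2, when the difference was -1.28 (limma adjusted p = 0.194).

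Set per kilobase of exon, the genes covered a wide range of levels. In the control group Ighm stood at 2217 normalised reads per kilobase, Ebf1 at 25.2, Cd79b at 15.6, Cd79a at 13.6, Pax5 at 3.30, Vpreb1 at 1.96, Igll1 at 1.88 and Rag1 at 0.492. The lowest Ighm library, at 401 per kilobase, was above the highest library of every other gene, which was 62.7 for Cd79b. Ebf1, Cd79b and Cd79a overlapped, with control ranges of 17.8 to 32.3, 6.35 to 28.0 and 3.46 to 34.1. Pax5, Vpreb1, Igll1 and Rag1 overlapped as well, with control ranges of 1.14 to 9.53, 0.842 to 4.51, 0 to 6.0 and 0 to 1.80, so neighbours in the order below Ighm did not differ beyond their spread.

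The library with most Ighm, control replicate 3, was among the lowest for the kappa light chain. Igkc, the kappa light chain constant gene, had 1548, 244, 70.1 and 197 normalised reads in controls 1 to 4 and 1854, 2226, 184 and 57.2 in the libraries labelled knockout. Per kilobase, control replicate 3 held 3493 of Ighm and 132 of Igkc, a ratio of 26.5, while knockout replicate 2 held 2371 and 4185, a ratio of 0.567. The 12 heavy chain variable rows of the table summed to 97.3, 0, 10.3 and 10.95 in the controls and 151, 60.7, 15.2 and 2.64 in the libraries labelled knockout, all at low counts. Control replicate 3, the highest for Ighm, was low in these rows too. No row of the table has fewer than 10 reads over the 8 libraries, so segments with fewer are missing from these sums. Pearson r over the 8 libraries was 0.65 between Ighm and Cd79a and 0.44 between Ighm and Igkc, against 0.92 between Cd79a and Cd79b and 0.87 between Cd79a and Pax5.

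**Figure D2:**
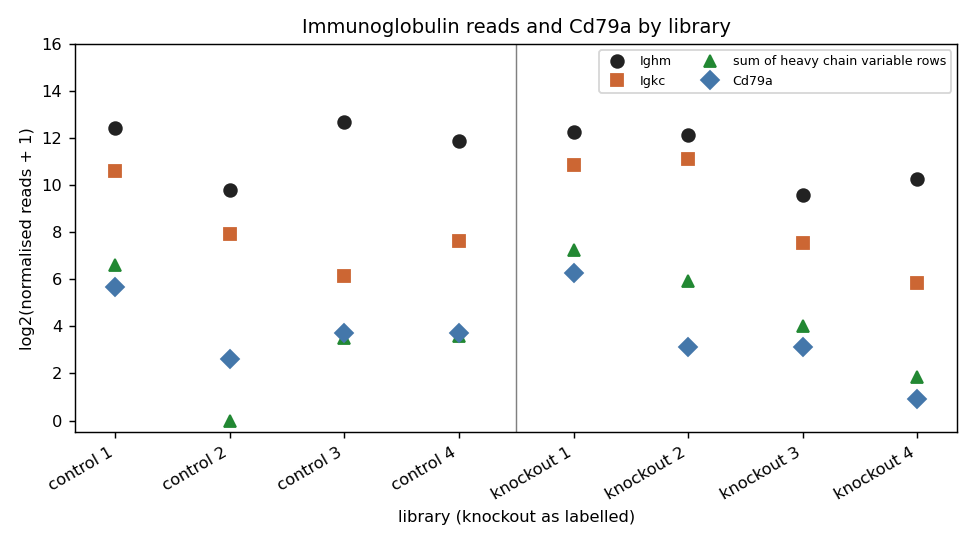
Points give log2(normalised reads + 1) of Ighm, Igkc, Cd79a and the sum of the 12 heavy chain variable rows in each of the 8 libraries, controls left of the line. Control replicate 3 has the highest Ighm value (6588) and the second lowest Igkc value (70.1).

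Some other genes of the lineage were also highest in replicate 1 of both groups. The 5 tested genes most like Cd79a over the 8 libraries were Igtp, 4933406C10Rik, Gimap3, Map4k1 and Gm44126, with r from 0.922 to 0.945. Control replicate 1 and knockout replicate 1 were the 2 highest libraries for 4 of the 8 genes of the set: Pax5, Vpreb1, Cd79a and Cd79b. In 5 lists of B lineage genes, chosen with earlier results of these data known, they were the 2 highest for 24 of 55 genes with a row. Of these, 13 were among the 19 surface and signalling genes and 0 among the 6 progenitor-stage genes. Among the 12 regulators there were 4, with 0 of the 7 tested and 4 of the 5 below the filter. Among the tested genes of those lists this held for 9 of 33 (27.3%), against 2.27% of all tested genes, and among those below the filter for 15 of 22 (68.2%), against 4.62% of all such rows. The choice of these libraries was made after their values were seen, so the shares are a description.

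The same 2 libraries stood high for some markers of other blood cells. They were the 2 highest for 5 of 13 T cell genes with a row and 4 of 14 neutrophil lineage genes, and for 0 of 11 erythroid genes. Control replicate 1 was the single highest library for 13 of the 14 neutrophil lineage genes and knockout replicate 1 for 1. For the T cell genes these counts were 1 and 10. In each group replicate 1 also held the highest T cell sum and the highest neutrophil sum, but not the highest erythroid sum. The T cell sum ranged from 107 to 223 in the controls and from 100 to 363 in the libraries labelled knockout, the neutrophil sum from 1828 to 9996 and from 3895 to 11203, and the erythroid sum from 16863 to 99521 and from 4075 to 42788. All 11 erythroid genes had log2 differences below 0 (median -1.91, against 0.00 over all tested genes). At an unadjusted p under 0.05 there were 9, where 38.4% of all tested genes were. Of the 11 erythroid genes limma, edgeR and DESeq2 called 0. Without knockout replicate 3 limma called 8 of them lower, and without control replicate 3 it called 3. Of 13 tested neutrophil lineage genes 12 had differences below 0 (median -0.61), and 1, Mmp9, was called higher (log2 difference 2.82, limma adjusted p = 0.0302), a call lost if control replicate 2, 3 or 4, or knockout replicate 1 or 4, was dropped (highest adjusted p 0.0854). Mpo, a granule enzyme of early myeloid cells, had 318, 47.4, 63.6 and 83.2 normalised reads in the controls and 86.8, 73.6, 51.1 and 8.80 in the libraries labelled knockout. T cell defining genes were low, Cd3d at 0 in control replicates 2 and 3 and knockout replicates 3 and 4. Of the T cell list 1 gene was called, Cd3e, which was lower (log2 difference -1.19, limma adjusted p = 0.0377) and was called only with control replicate 3 or knockout replicate 1 left out among the 8 leave-one-out fits (highest adjusted p 0.0937). Of 3 tested genes of the plasmacytoid dendritic cell list Bst2 was called higher (log2 difference 0.64, limma adjusted p = 0.0461). Cox6a2, which skeletal muscle also expresses, was called lower (log2 difference -0.48, limma adjusted p = 0.0237). The first call held only with control replicate 1 or knockout replicate 2 dropped among the 8 leave-one-out fits, and the second was lost with control replicate 2 or 4, or knockout replicate 2 or 4, dropped (highest limma adjusted p 0.112 and 0.0703). Their part in the B cell gene values was not tested, and in whole joints fewer cells of a type and less RNA per cell cannot be told apart.

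**Figure D3:**
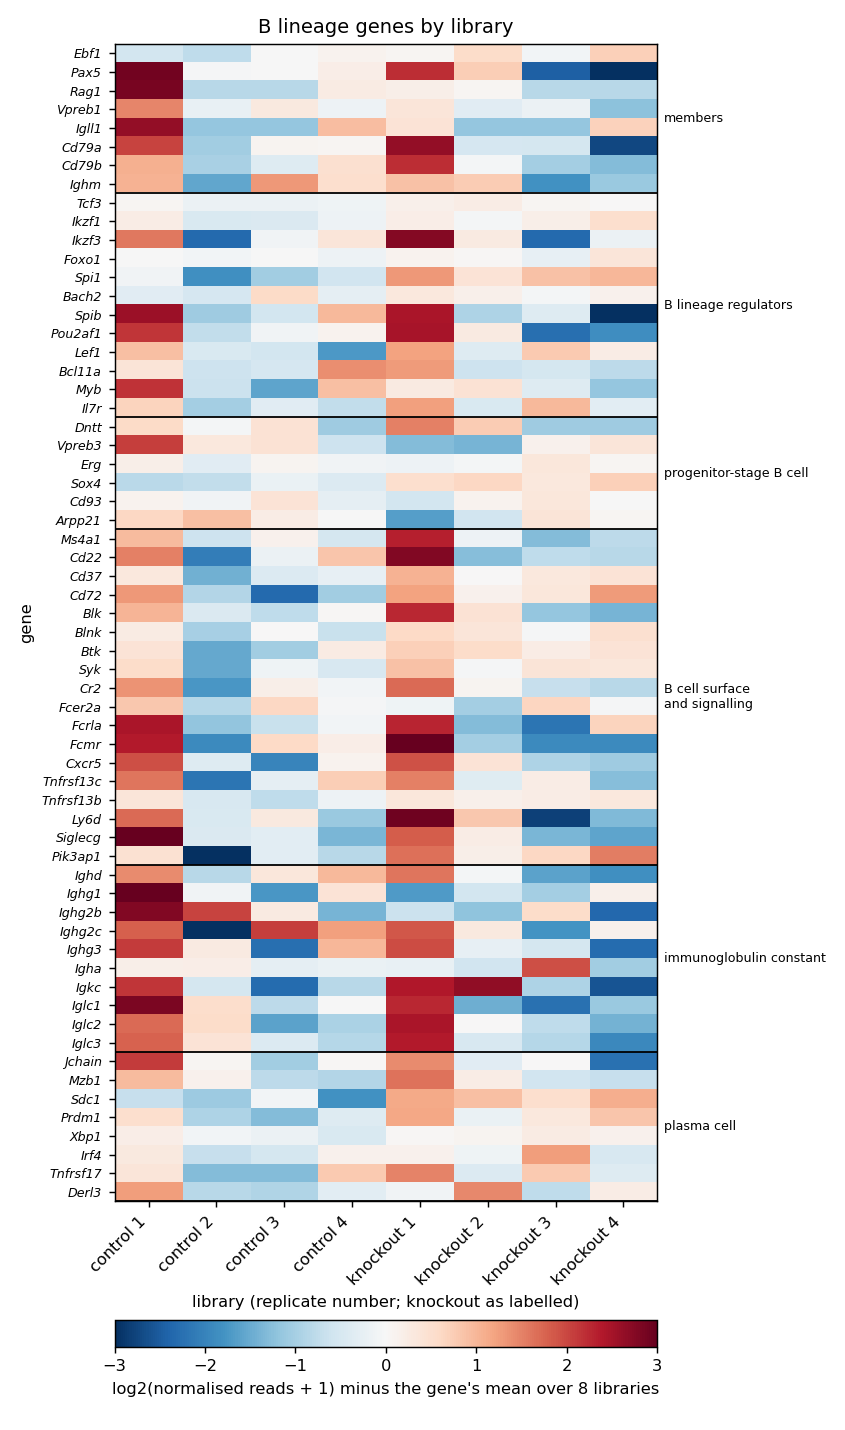
Each row is a gene of the set or of the 5 B lineage lists and each column 1 library, with colour for log2(normalised reads + 1) minus the mean of the gene over the 8 libraries, capped at 3 in either direction. The columns of control replicate 1 and knockout replicate 1 are the 2 highest for Pax5, Vpreb1, Cd79a and Cd79b.

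Few genes of the wider lineage were called. Over the 5 lists 33 genes were tested, and 3 were called higher and 0 lower (9.09%, against 23.2% of all tested genes), with a median log2 difference of 0.27 against 0.00 over all tested genes. Among 7 tested regulators 1 was called, Spi1, the PU.1 gene of myeloid and B cells, which rose from 140 ± 65.7 to 451 ± 111 (log2 difference 1.78, SE 0.33, limma adjusted p = 0.00795). Tcf3, the E2A gene, had a difference of 0.22 (limma adjusted p = 0.110), Ikzf1, the Ikaros gene, 0.40 (0.198) and Il7r, the interleukin 7 receptor, 0.72 (0.340). Among 4 tested progenitor genes Sox4 was called, and rose from 64.0 ± 13.3 to 135 ± 16.3 (log2 difference 1.08, limma adjusted p = 0.00610). Arpp21 (log2 difference -0.88, limma adjusted p = 0.140), Erg (0.09, 0.689) and Cd93 (-0.07, 0.833) were not. Dntt, which adds bases at the joints of immunoglobulin genes, reached at most 4.99 normalised reads. Vpreb3, also below the filter, had 8.08 ± 7.74 in the controls and 2.87 ± 2.28 in the libraries labelled knockout (SD, n = 4 each). Spi1 and Sox4 kept their calls in all 18 alternatives run. Spi1 is a marker of macrophages as well, and cells outside the B lineage also express Sox4, Erg and Cd93.

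Receptor and signalling genes of B cells were not called in the full comparison. Of 19 such genes 9 were tested, and limma called 0, edgeR 0 and DESeq2 1. At an unadjusted p under 0.05 there were 5 of the 9, where 38.4% of all tested genes were. The 5 were Pik3ap1 (log2 difference 1.98, limma adjusted p = 0.0713), Cd37 (0.89, 0.0906), Blnk (0.71, 0.108), Btk (0.96, 0.123) and Cd72 (1.48, 0.127), genes that myeloid cells also express. Without control replicate 1, 4 were called higher: Pik3ap1 (2.46, limma adjusted p = 0.0385), Cd72 (2.16, 0.0163), Cd37 (1.14, 0.0408) and Syk (1.11, 0.0457). Without replicate 1 of both groups 1 was called, Cd72 (2.0, limma adjusted p = 0.0429). Ms4a1, the CD20 gene, was among the 10 below the filter, with 14.1, 4.04, 7.48 and 4.38 normalised reads in the controls and 37.9, 5.99, 2.17 and 3.52 in the libraries labelled knockout.

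Immunoglobulin constant and plasma cell genes gave 1 call between them. Of 7 tested constant genes limma called 0, with 0 at an unadjusted p under 0.05, edgeR 0 and DESeq2 1. Ighg2b had the smallest p (log2 difference -1.83, SE 0.91, limma adjusted p = 0.166), followed by Ighd (-0.95, 0.396), Igkc (0.76, 0.685) and Ighg3 (-0.56, 0.729). Of 6 tested plasma cell genes Sdc1, the syndecan-1 gene that fibroblasts and epithelia also use, was called and rose from 295 ± 144 to 974 ± 180 (log2 difference 1.83, limma adjusted p = 0.00605). Prdm1 (log2 difference 1.05, limma adjusted p = 0.0931), Xbp1 (0.25, 0.179) and Irf4 (0.39, 0.505) were not called, and Jchain, which joins IgM units, had a difference of -0.57 (0.630). Without control replicate 1 the plasma cell calls were 3, with Prdm1 and Xbp1 beside Sdc1 (limma adjusted p = 0.0317 and 0.0486).

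Of 8 tested niche and survival factors limma called 2 higher and 0 lower, a share near the 23.2% of all tested genes, edgeR 0 and DESeq2 4. With the scaling that leaves out the muscle, red cell and neutrophil lists and the most read genes, limma called 4. Vcam1, an adhesion molecule of marrow stroma and vessels, rose from 122 ± 56.9 to 263 ± 118 (log2 difference 1.11, limma adjusted p = 0.0451), and Tnfsf13, the APRIL gene, from 7.27 ± 5.34 to 20.1 ± 6.79 (log2 difference 1.48, limma adjusted p = 0.0472). Leaving out any of control replicates 2, 3 and 4 or knockout replicates 1, 2 and 4 ended both calls, as did knockout replicate 3 for Tnfsf13 (highest adjusted p 0.118 for Vcam1 and 0.123 for Tnfsf13). Tnfsf13b, the BAFF gene, had a difference of 1.21 (limma adjusted p = 0.0569) and Lepr, a marker of marrow stroma, 1.03 (0.0633).

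**Figure D4:**
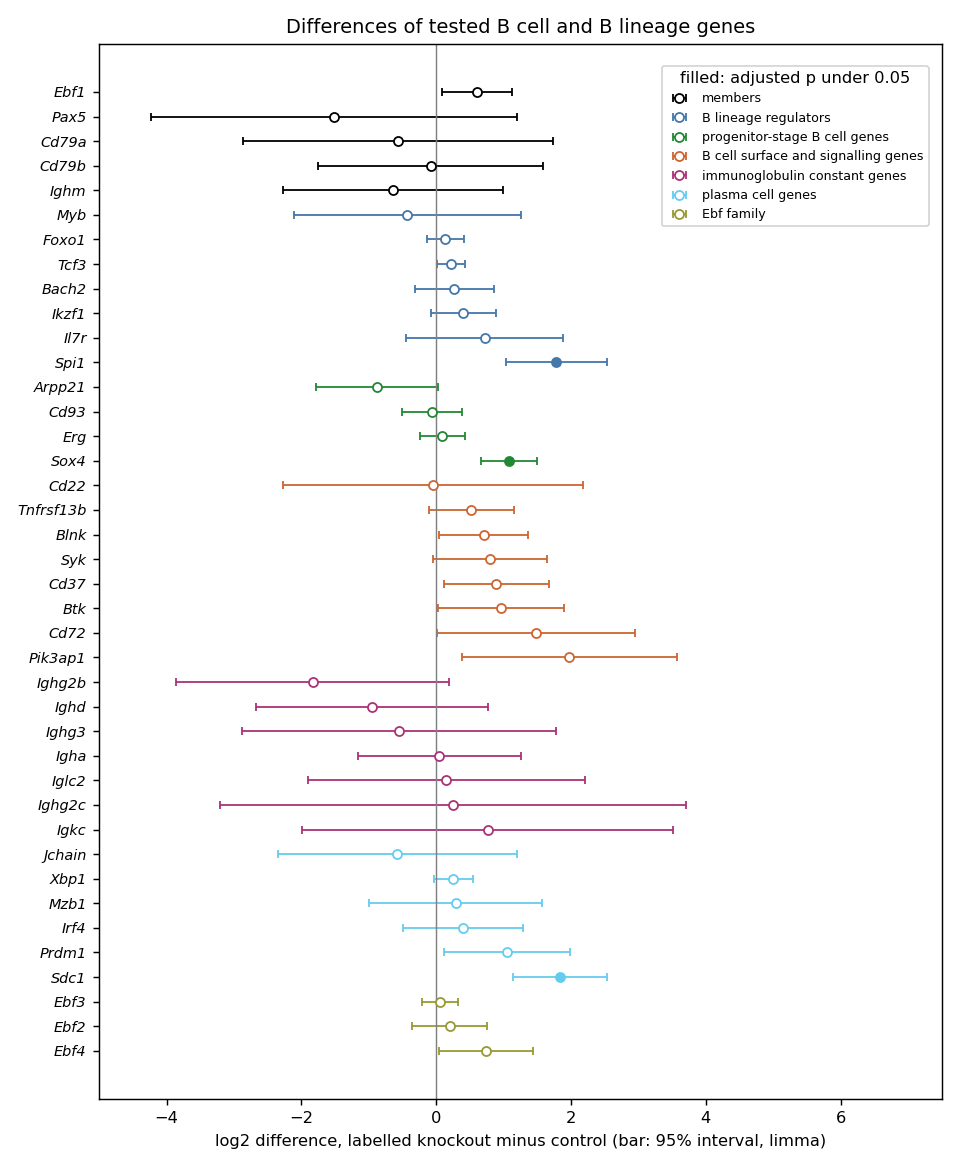
Points give the log2 difference (labelled knockout minus control) of tested genes of the set, the 5 B lineage lists and the Ebf family, with 95% intervals from limma, filled where the adjusted p is under 0.05. The filled points are Spi1, Sox4 and Sdc1, and of the 5 genes of the set Ebf1 alone has an interval that does not reach 0 before adjustment.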

How the data were processed

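The members and gene lists were chosen with earlier results of these data known. The deposited values are a normalised signal, 1 per gene and library. Per the submitters' processing notes, the authors aligned reads with HISAT2 to mm10 and counted them with featureCounts, and per the labels they normalised and filtered with DESeq2. Versions, annotation and use of strand are not given in the sources used here. Dividing by the smallest step of its column turned 100% of values into whole reads (tolerance 0.02 of a step). For the second control and the first knockout library the step is near 1 (1.01 and 0.997), so less is shown there.

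Genes that reached 10 in 4 or more libraries were tested with limma 3.58.1 (trend) on log2(value + 1), and p-values were adjusted by Benjamini-Hochberg over all tested genes. On that scale the difference of a low gene depends on the added 1 and on libraries near 0, so it can be understated or overstated. For Pax5 it was -1.51, against -2.48 with 0.1 added, -0.72 with edgeR and -0.71 with DESeq2. Exact two-sided permutation tests used the mean of log2(value + 1). edgeR 4.0.16 and DESeq2 1.42.0 were run on recovered reads as alternatives, as were 2 pseudocounts, 2 filters, 2 scalings, a replicate block and leaving out libraries. The main limma fit, edgeR and DESeq2 were tested on simulated counts with the same dispersion for every gene. The other alternatives were not tested in this way. Coordinates are from GENCODE M21 (the mm10 build), which matched 99.2% of rows. All members were named, with the targeted gene, the Ebf family, at most 4 tested genes of smallest p from each list (others were chosen after their values were seen), and the 5 genes most like Cd79a and Ebf1. Intervals for counts of 0 cover counting error only. An item of the lists is counted in them but not reported here.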

Additional observations from a re-analysis of the deposited data

Results flagged for a closer look

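Within a group of 4 libraries, 1 library stood far from the other 3 in 5 of the 16 groups checked for the B cell development genes. The check flags about 1 in 20 independent groups of normally distributed values. It was made on normalised reads without logs, where low counts are skewed, and several of these genes varied together. That rate therefore does not apply directly here. In the controls these were replicate 1 for Pax5 (84.4 normalised reads, the next library 12.0), for Rag1 (11.9, the next 1.10) and for Cd79a (49.8, the next 12.2). In the libraries labelled knockout they were replicate 1 for Cd79a (75.8, the next 7.70) and for Cd79b (89.8, the next 18.0). The summed immunoglobulin constant genes stood apart in control replicate 1 as well, at 2237 against 438 in the next library. Loxl2 was far from the other controls in control replicate 3, at 1135 against 349. The cause was not tested.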

How the results depend on the processing

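The set held 0 called genes under 16 of 18 alternatives, leaving out each library included (lowest 0, highest 0), and 1, Ebf1, with the scaling that removes muscle, erythroid, neutrophil and top genes and with DESeq2. The filter of 50 in at least 4 libraries left only Ebf1 and Ighm of the set to be tested. Over all genes the calls moved from 3461 to 2018 with the replicate block and to 1673 without replicate 1 of both groups, a choice made after seeing the data, and ranged from 1751 (without knockout replicate 4) to 3841 when a library was left out. They were 1887 with control replicate 2 left out and 2194 with control replicate 4 left out. The scaling above gave 2722 higher and 776 lower calls against 1732 and 1729. Calls among the listed genes outside the set were 39, ranged from 23 (without knockout replicate 4) to 49 when a library was left out, and were 51 with DESeq2. Ebf1 stayed between 0.46 and 0.76, Pax5 between -2.50 and -0.60 and Ighm between -1.28 and -0.15. The difference of Cd79b turned positive with a pseudocount of 8 (0.010), that scaling (0.056), edgeR (0.46) and DESeq2 (0.48), and ranged from -0.83 to 0.33 when a library was left out. It was positive with control replicate 1 (0.25) or 4 (0.058) left out, or knockout replicate 3 (0.24) or 4 (0.33). That of Cd79a turned positive with edgeR (0.21) and with control replicate 1 (0.010) or knockout replicate 4 (0.24) left out, and ranged from -1.54 to 0.24 when a library was left out. DESeq2 gave Cd79a no p. The cause was not tested. Same-numbered libraries did not as a rule deviate together over all genes (correlations of 0.213, -0.118, -0.233 and -0.063 for replicates 1 to 4), so the numbers were not taken as pairs. Differently numbered libraries gave -0.162 to 0.275, and the value of replicate 1 lay near the top of that range. Under the replicate block the limma adjusted p was 0.0943 for Ebf1, 0.196 for Pax5, 0.558 for Cd79a, 0.927 for Cd79b and 0.584 for Ighm. The block called 3 receptor and signalling genes (Syk, Pik3ap1 and Cd37) where 0 were called without it. Loxl2 was not called with the block (limma adjusted p = 0.0513), edgeR (0.0669) or DESeq2 (0.0659). Depth limits Rag1, Igll1 and Vpreb1.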
